A study of Mus musculus with 2 samples.

Results

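Cd7-positive cells of a gate called type 2 conventional dendritic cell (cDC2)-like here were followed in 2 libraries of CD11c-selected cells from mouse mammary tumours. They were picked cell by cell from their counts of unique molecular identifiers (UMIs), each of which marks 1 captured transcript. A member had at least 1 Cd7 UMI, at least 2 UMIs of Cd209a, Klrd1 and Mcemp1 together and at least 1 of H2-DMb2. It also had under 0.1% of UMIs from C1qa, C1qb and C1qc, fewer than 2 UMIs each of Fscn1, of Fn1 and of Xcr1 with Clec9a, none of Cd3g or Nkg7, and fewer than 3 of the cycling genes Top2a, Birc5, Ube2c and Cdk1 together. Of 3173 cells with at least 2000 UMIs and at most 10% mitochondrial UMIs, 80 were members, 32 of 1958 in replicate 1 and 48 of 1215 in replicate 2. The same gate with 0 Cd7 UMIs held 88 and 78 cells, called Cd7-negative gate cells here.

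Both libraries were wild type, from the microenvironment of PyMT tumours in C57BL/6N mice, and form a single group, so the series holds no treated or mutant arm and every comparison is between cell classes of the same libraries. PyMT mice carry a viral oncogene driven in the mammary epithelium and develop mammary carcinomas. CD11c, encoded by Itgax, is carried by dendritic cells and also by many macrophages and some lymphocytes. The labels give no age, treatment or time and do not say that the libraries came from separate animals. The p-values below therefore rest on these 2 libraries only. In the main fit, p-values measure how all cell classes vary between the libraries once the shift common to the classes is removed. The libraries held 17369071 and 13317214 UMIs, and members had a median of 6356.5 and 7311.5 UMIs per cell against 5932.5 and 8051.5 in Cd7-negative gate cells. No barcode was a member in both libraries, and no member was among the cells removed in the doublet alternative.

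Conventional dendritic cells take up antigen and show it to T cells, and the type 2 lineage presents mainly to CD4 T cells through MHC class II. CD7 is an immunoglobulin-family surface protein known from T cells, NK cells and their progenitors. Klrd1 encodes CD94, the partner of NKG2 receptors on NK cells, and is also transcribed in dendritic cells. Tcf4 encodes E2-2, an E protein that binds E-box DNA and is required by plasmacytoid dendritic cells, while Id2 encodes an inhibitor that keeps E proteins from binding DNA.

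The genes that chose the members are given first, as a description without a test. Cd7 lies at chr11:121036747-121039418 on the minus strand of GRCm38, Klrd1 at chr6:129591782-129598775 on the plus strand, and Cd209a and Mcemp1 at chr8:3743397-3748984 and chr8:3665754-3669259. The summed UMIs of each class were scaled to a common library size as CPM, with TMM factors that also correct for composition. Cd7 reached 449 CPM in replicate 1 and 634 in replicate 2, from 96 and 215 UMIs. Cytotoxic lymphocyte-like cells, gated on Cd3g and Nkg7, had 380 and 221 CPM of Cd7, and each other class had at most 8.8. The share of cells with a Cd7 UMI outside members and lymphocyte-like cells was at most 2.50%, in replicate 2 of Fn1 monocyte-like cells. In barcodes with at most 50 UMIs, which hold mainly free RNA, Cd7 was at 13.3 and 19.0 CPM without TMM.

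Klrd1, the gene of CD94, stood at 547 and 596 CPM in members and at 292 and 253 in Cd7-negative gate cells, so both libraries of members were above both libraries of the other class. Lymphocyte-like cells carried 540 and 533 CPM of Klrd1, and C1q macrophage-like cells 4.1 and 4.8. Klrd1 had a UMI in 90.6% (29 of 32) and 87.5% (42 of 48) of members, and in 55.7% and 59.0% of Cd7-negative gate cells. Cd209a, which encodes a DC-SIGN-type lectin, was lower in members, at 738 and 864 CPM against 1195 and 1079, and was found in a like share of cells, 81.3% and 83.3% against 81.8% and 82.1%. Mcemp1, a mast cell-expressed membrane protein gene, had 136 and 198 CPM in members and 217 and 293 in Cd7-negative gate cells. H2-DMb2, a chain of the MHC class II peptide-loading chaperone, had 906 and 764 against 541 and 571 CPM. Of the members, 6 and 20 held UMIs of all of Cd209a, Klrd1 and Mcemp1, and 3 and 5 passed on Klrd1 alone.

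**Figure D1:**
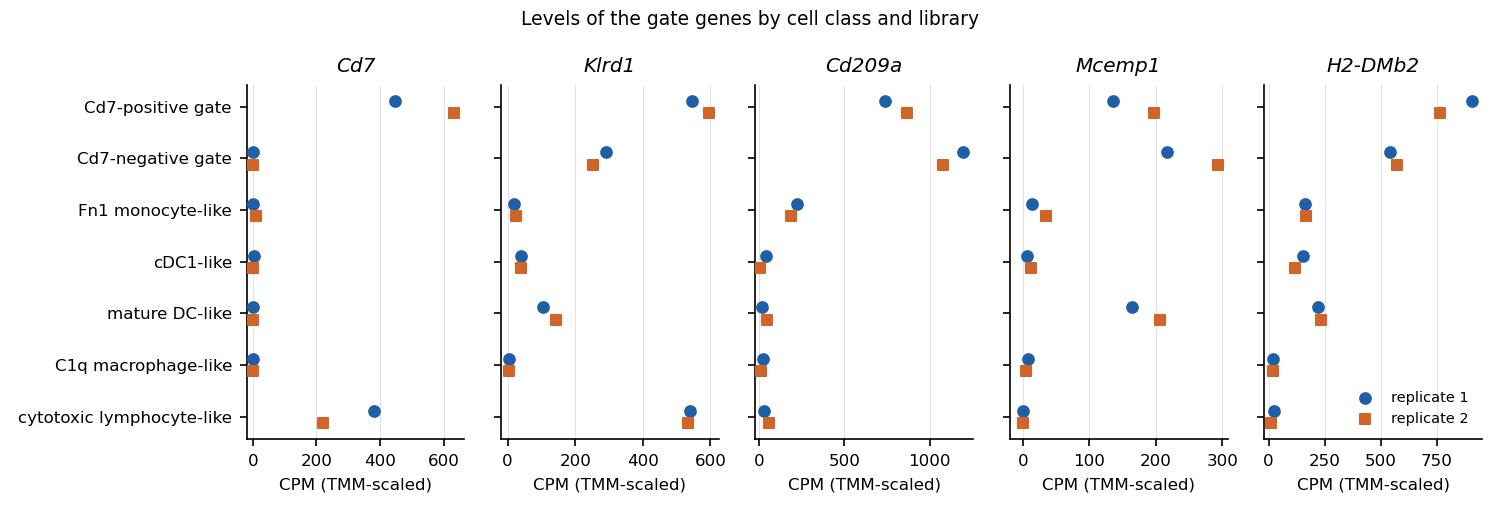
Levels of 5 genes used by the gate, in CPM scaled by TMM on linear axes from 0, for the 7 cell classes, with 1 point per library. Cd7 is high in members and in lymphocyte-like cells, and Klrd1 in members is above its level in Cd7-negative gate cells in both libraries.

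Members made up 26.7% of the gate in replicate 1 (exact Clopper-Pearson 95% interval 19.0 to 35.5) and 38.1% in replicate 2 (29.6 to 47.2), with a mean of 32.4% ± 8.08 (SD, n = 2). Intervals here cover counting error only. As a share of all cells they were 1.63% (1.12 to 2.3) and 3.95% (2.93 to 5.20). When every cell was thinned to 2000 UMIs, 16 of 120 (13.3%) and 28 of 126 (22.2%) gate cells still had a Cd7 UMI, so some members were seen only at full depth and a gate cell with 0 Cd7 UMIs may still express the gene. At the edge of the rule, 14 and 12 members had exactly 1 Cd7 UMI, and 18 and 36 had 2 or more, up to 9 and 16.

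Members with 1 Cd7 UMI and those with more stood on the same side of Cd7-negative gate cells for most genes described below. On CPM of summed UMIs without TMM, Klrd1 in replicate 1 was 286 with 0 Cd7 UMIs, 355 with 1 and 694 with 2 or more, and in replicate 2 it was 227, 387 and 627. Mgl2, a lectin gene of cDC2 and macrophages, was 716, 230 and 91.9 CPM in replicate 1 and 1042, 469 and 304 in replicate 2. Ear2, an eosinophil-associated ribonuclease gene, was 504, 105 and 41.8 CPM in replicate 1 and 651, 293 and 37.1 in replicate 2. Plac8 was 767, 1588 and 3502 CPM, then 435, 1324 and 1684. Klrd1 and Plac8 were thus higher, and Mgl2 and Ear2 lower, in each step of Cd7 UMIs in both libraries. Tcf4 did not keep such an order, at 31.9, 115 and 175 CPM in replicate 1 and 33.6, 328 and 145 in replicate 2.

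**Figure D2:**
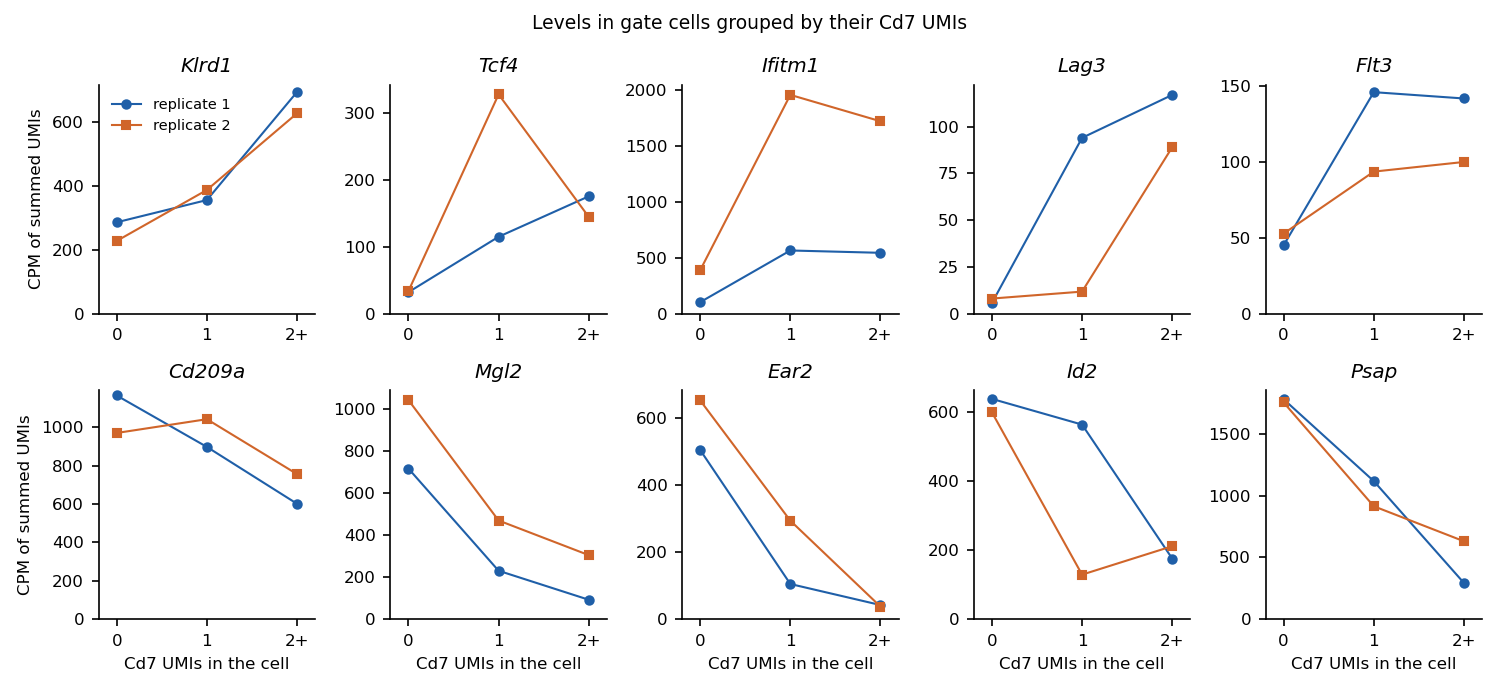
CPM of summed UMIs without TMM, on linear axes from 0, for 10 genes in gate cells with 0, 1 and 2 or more Cd7 UMIs, with 1 line per library. Klrd1 is higher, and Mgl2 and Ear2 are lower, with each step of Cd7 UMIs in both libraries.

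The label of a cDC2-like cell was checked against markers that the gate did not use. Clec10a, Mgl2, Flt3, Zbtb46 and Sirpa were all detected in members of both libraries and summed to 580 and 924 CPM. The sum was 1086 and 1448 in Cd7-negative gate cells, above members in both libraries. It was 174 and 161 in cDC1-like cells, 397 and 776 in Fn1 monocyte-like cells and 485 and 343 in C1q macrophage-like cells. MHC class II transcripts were abundant, with H2-Ab1 at 15987 and 20754 CPM in members and 18045 and 22773 in Cd7-negative gate cells. Of 7 NK markers, Ncr1, Klrb1c, Gzma, Gzmb, Prf1 and Eomes were at 0 UMIs in members of both libraries, and Klre1 had 1 and 4. The T cell genes Cd3d, Cd3e, Lck and Thy1 together had 2 and 0 UMIs, and B cell genes 0 and 1. Members had already been chosen for having no Cd3g or Nkg7 UMI, so the NK and T cell counts are no independent check of the label. Macrophage markers summed to 687 and 341 CPM against 599 and 426 in Cd7-negative gate cells. The mature DC genes Ccr7, Cacnb3, Il4i1 and Socs2 summed to 641 and 1037 CPM in members, mostly Ccr7, above the cDC2 marker sum of members in both libraries. This mature DC sum was 654 and 1110 in Cd7-negative gate cells and 4872 and 5192 in mature DC-like cells.

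Markers of plasmacytoid dendritic cells did differ between the classes. Siglech, Bst2, Ccr9, Klk1, Cox6a2 and Tcf4 summed to 864 and 442 CPM in members and to 263 and 240 in Cd7-negative gate cells, most of it Bst2 and Tcf4. The sum was not particular to members, at 798 and 746 CPM in C1q macrophage-like cells, which were above members in replicate 2. Siglech, the defining surface receptor, had a UMI in 4 of 32 and 4 of 48 members and in 5 of 88 and 0 of 78 Cd7-negative gate cells. Ccr9 had 8 and 0 UMIs in members, Klk1 1 and 0, and Cox6a2 10, all in 1 cell, and 1. A monocyte list summed to 3060 and 1885 CPM against 1107 and 734, mostly Plac8, with Vcan at 0 in both classes, and its part in the results below was not tested. The results below are therefore also given without the gate cells that held a UMI of Siglech, Ccr9, Klk1 or Cox6a2, an alternative chosen after the data were seen.

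Members were compared with Cd7-negative gate cells, which differ from them by rule only in Cd7. Tcf4 and Ifitm1 rose, together with Lag3, Zmynd8, Cyp7b1, Prnp, Tsc22d1, Tmem173, Gpr183 and Pi16, and Id2, Ccl17, Cxcl2, Ear2, Fcgr3 and Psap were among the genes that fell. In an edgeR quasi-likelihood fit that held the library constant as a block, 14 of 4894 tested genes were higher in members at an adjusted p under 0.05, which is 0.286%, and 30 were lower, 0.613%, together 0.899%. The median log2 difference over all tested genes was 0.01. At an unadjusted p under 0.05 there were 560 genes. All 44 genes called had libraries that did not overlap between the classes, as did 1984 of the 4894 tested genes (40.5%).

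**Figure D3:**
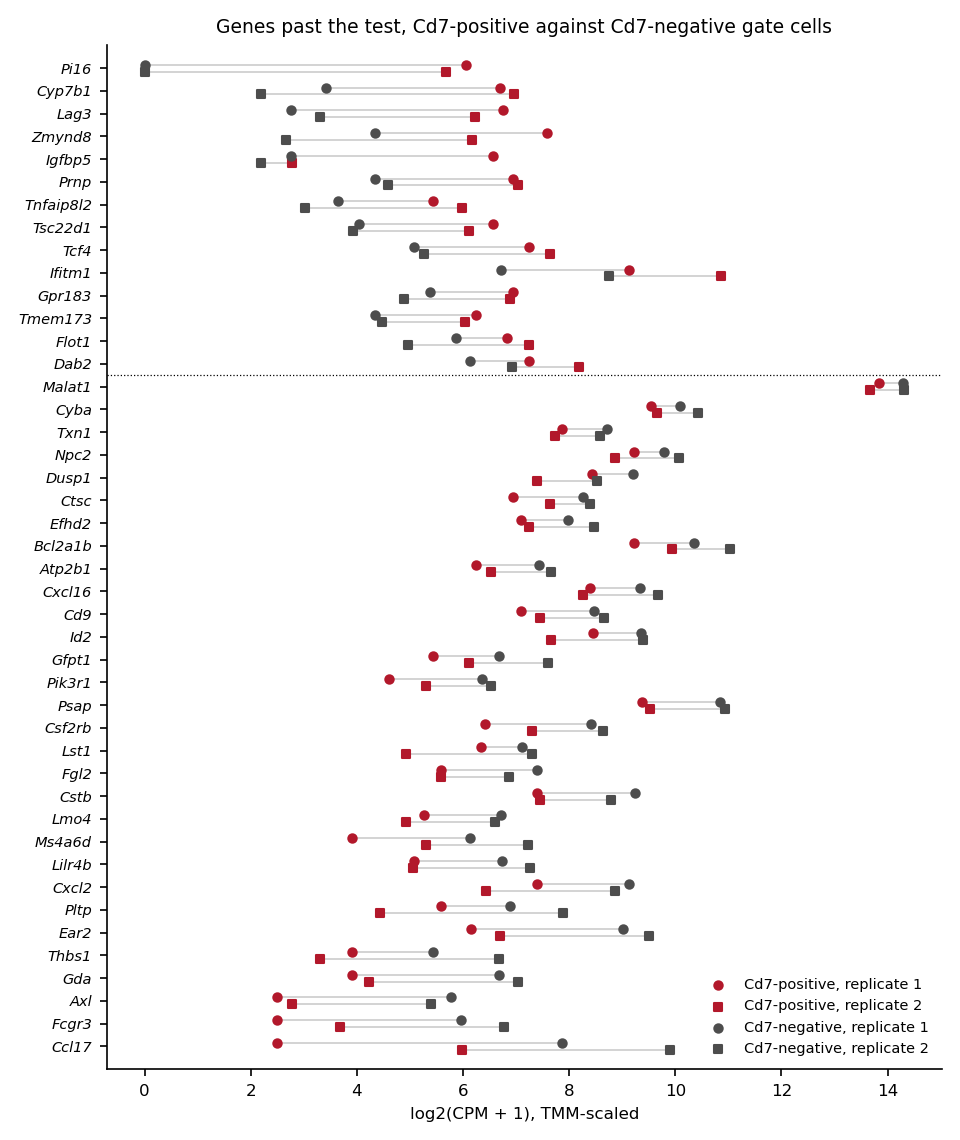
Levels as log2(CPM + 1), scaled by TMM, of the 14 genes called higher (above the dotted line) and the 30 called lower in members against Cd7-negative gate cells, with 1 point per library and class and a line joining the classes of a library. Tcf4 in members is at 150 and 198 CPM against 32.7 and 37.3, and Ccl17 is at 4.7 and 61.9 against 231 and 951.

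The transcription factors were led by Tcf4. It stood at 150 and 198 CPM in members and 32.7 and 37.3 in Cd7-negative gate cells. The log2 difference was 2.32 (SE 0.25, adjusted p = 3.86e-04, edgeR quasi-likelihood). Tcf4 had a UMI in 50% and 62.5% of members, in 19.3% and 20.5% of Cd7-negative gate cells and in 9.52% and 17.9% of cDC1-like cells. After thinning to 2000 UMIs the shares were 34.4% and 29.2% in members, 5.68% and 7.69% in Cd7-negative gate cells and 4.76% and 2.56% in cDC1-like cells. The highest level in another class was 74.6 and 86.5 CPM in C1q macrophage-like cells, so members were above every other class in both libraries. Without the gate cells holding a plasmacytoid marker UMI the log2 difference of Tcf4 was 2.15 (SE 0.26, adjusted p = 0.00151, edgeR).

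Id2, whose protein blocks E proteins, went the other way. It was at 350 and 201 CPM in members and 654 and 667 in Cd7-negative gate cells, a log2 difference of -1.32 (SE 0.22, adjusted p = 0.0162, edgeR). Lymphocyte-like cells had 1598 and 1103 CPM and mature DC-like cells 1976 and 1318, so members were low among these classes. Of 31 tested transcription factors of dendritic cells, Tcf4 rose, Id2 fell and 29 did not pass, with a median log2 difference of -0.14. Irf4 (log2 difference 0.13, adjusted p = 0.977), Irf8 (-0.26, 0.904), Zbtb46 (0.14, 0.975), Zeb2 (0.15, 0.93) and Klf4 (-0.87, 0.259) were among those that did not.

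Among surface and secreted products that rose, Lag3 encodes an inhibitory receptor for MHC class II and is known from T cells and plasmacytoid dendritic cells. Lag3, at chr6:124904361-124911705, was at 107 and 73.7 CPM in members against 5.8 and 8.9, a log2 difference of 3.55 (SE 0.54, adjusted p = 0.00944). Lag3 had a UMI in 25% and 22.9% of members, in 3.41% and 5.13% of Cd7-negative gate cells, in 22% and 10.3% of lymphocyte-like cells, in 16.7% and 12.8% of cDC1-like cells and in 0.654% and 1.25% of Fn1 monocyte-like cells. Gpr183, the oxysterol receptor that positions dendritic and B cells in lymphoid tissue, was at 121 and 118 CPM against 40.4 and 28.4, a log2 difference of 1.77 (SE 0.36, adjusted p = 0.0286). Cyp7b1, an oxysterol hydroxylase that takes part in making the Gpr183 ligand, was at 103 and 124 CPM against 9.6 and 3.6 (log2 4.12, SE 0.66, adjusted p = 0.0162). In the other 5 classes Cyp7b1 was at most 12.3 CPM, and 6 and 15 members had a UMI of it.

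Pi16, a peptidase inhibitor gene, was found in 9 members of each library and in no Cd7-negative gate cell. With 31 UMIs against 0, it was at least 21-fold higher, taking 3 counts over the group as the floor (adjusted p = 0.0339). Prnp, the prion protein gene, was at 121 and 130 CPM against 19.2 and 23.1 (log2 2.57, SE 0.46, adjusted p = 0.0212). Ifitm1, an interferon-inducible membrane protein gene at chr7:140967221-140969825, had 556 and 1861 CPM in members and 104 and 430 in Cd7-negative gate cells, a log2 difference of 2.21 (SE 0.41, adjusted p = 0.0212). Its level differed between the libraries in both classes, and the lower library of members was above the higher library of the other class.

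Inside the cell, Zmynd8, a chromatin reader, was at 192 and 70.8 CPM against 19.2 and 5.3 (log2 3.34, SE 0.51, adjusted p = 0.00944). Tmem173, which encodes STING, an adaptor of cytosolic DNA sensing, was at 74.7 and 64.9 CPM against 19.2 and 21.3 (log2 1.75, SE 0.34, adjusted p = 0.0223). Tsc22d1, a transcription regulator of the leucine zipper type, was at 93.4 and 67.8 CPM against 15.4 and 14.2 (log2 2.45, SE 0.45, adjusted p = 0.0212). The other genes called higher, outside the naming rule, were Flot1, Dab2, Tnfaip8l2 and Igfbp5. Igfbp5 rested on 1 cell of replicate 1, with 93.4 CPM there and 5.9 in replicate 2, and its log2 difference turned to -0.51 with members of 2 or more Cd7 UMIs.

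Single members held several of the genes called higher. Of these 14 genes, a member had a UMI of a median of 5 in each library (range 1 to 10 and 0 to 11), and a Cd7-negative gate cell of 1 and 2. At least 5 were found in 59.4% and 52.1% of members and in 4.55% and 2.56% of Cd7-negative gate cells. This is a description of the genes chosen by the comparison, not a second test of it. Whether these genes share cells more often than their single shares give was not tested.

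**Figure D4:**
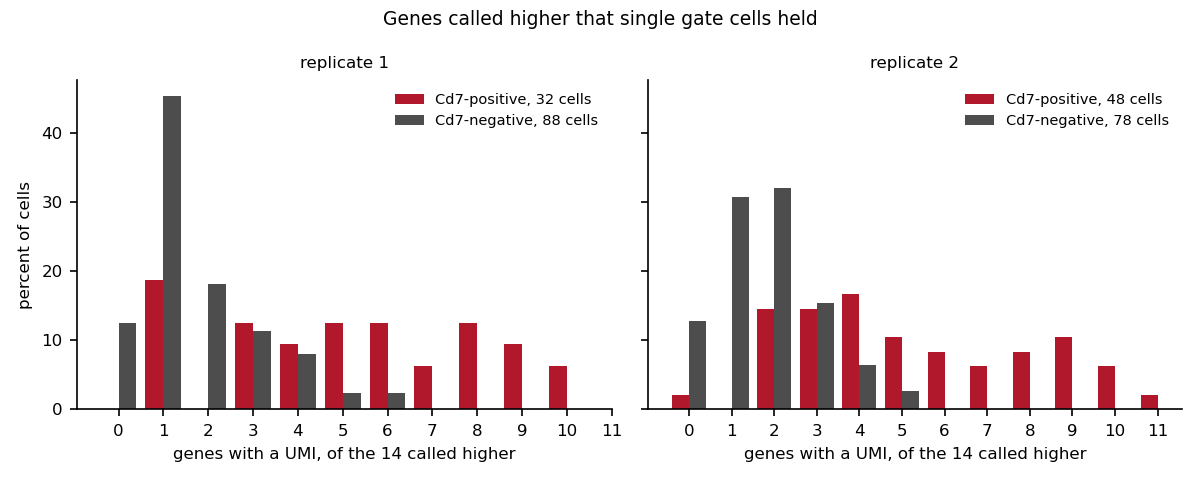
Percent of cells, on the vertical axis, by how many of the 14 genes called higher had a UMI, on the horizontal axis, for members and Cd7-negative gate cells of each library. The median is 5 genes for members of both libraries, and 1 and 2 for Cd7-negative gate cells.

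Genes that fell included 3 chemokines. Ccl17, which attracts CCR4-positive T cells, was at 4.7 and 61.9 CPM in members against 231 and 951 (log2 -3.91, SE 0.70, adjusted p = 0.0212), with 2724 and 2884 CPM in mature DC-like cells. Cxcl2, a neutrophil chemokine, was at 168 and 85.5 CPM against 562 and 464 (log2 -2.09, SE 0.40, adjusted p = 0.0223). Cxcl16, the ligand of CXCR6, was at 336 and 307 CPM against 646 and 814 (log2 -1.19, adjusted p = 0.0223). Of 19 chemokines tested these 3 fell and none rose, and 2 of 19 had a positive log2 difference, with a median of -1.16. Over all tested genes 2472 of 4894 log2 differences were positive. In both libraries members were below Cd7-negative gate cells for each of the 3.

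Ear2 was at 70.1 and 103 CPM in members against 516 and 724 (log2 -2.80, SE 0.60, adjusted p = 0.0357). Fcgr3, a low-affinity IgG receptor, was at 4.7 and 11.8 CPM against 61.6 and 108 (log2 -3.26, SE 0.54, adjusted p = 0.0156). Ms4a6d (log2 -1.97, adjusted p = 0.0223), a tetraspan surface gene, fell with them. Of 31 genes shared by Ccr2-type cDC2 and monocytes, these 3 fell and Ifitm1 rose, with a median of -0.08. In this list 15 log2 differences were positive, a share near that over all tested genes (2472 of 4894). Ccr2 itself had a log2 difference of -0.35 (adjusted p = 0.662), and Plac8, a gene of monocytes and plasmacytoid cells named here after its values were seen, was at 2668 and 1672 CPM against 785 and 484 without passing (log2 1.77, adjusted p = 0.191). Plac8 had a UMI in 93.8% and 75.0% of members and in 37.5% and 35.9% of Cd7-negative gate cells.

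Lysosomal and uptake genes had 4 falls and no rise among 27 tested, with a median log2 difference of -0.19. Psap, the saposin precursor, was at 663 and 731 CPM in members against 1824 and 1950 (log2 -1.43, SE 0.30, adjusted p = 0.035). Axl, a receptor for apoptotic cells, had 3 UMIs in members and 51 in Cd7-negative gate cells, 8.38-fold lower per total UMIs (counting interval 2.71 to 42.0, adjusted p = 0.0448). Ctsc, a cathepsin, and Npc2, a cholesterol carrier, fell as well. Of 22 surface and growth factor receptor genes of cDC2, Cd9 (log2 -1.27, SE 0.23, adjusted p = 0.0212), a tetraspanin, and Csf2rb (log2 -1.55, SE 0.35, adjusted p = 0.0448), the common beta chain of the GM-CSF receptor, fell and none rose. Flt3, the growth factor receptor of dendritic cells, was at 145 and 103 CPM against 46.2 and 58.7 (log2 1.20, SE 0.37, adjusted p = 0.164).

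No gene of antigen presentation was called in either direction. With 0.899% of all tested genes called, 0 calls in a list as small as those below is near that share and is no result about the list. None of 13 MHC class II genes tested and none of 20 MHC class I genes was called, with median log2 differences of -0.06 and -0.05, and H2-Ab1 (-0.15, adjusted p = 0.942) and Cd74 (-0.10, adjusted p = 0.97) were among them. None of 21 NK-type receptor and adaptor genes was called besides the untested Cd7 and Klrd1, and their median was -0.12. Klrk1, the gene of NKG2D, had a UMI in 31.3% and 45.8% of members and 35.2% and 37.2% of Cd7-negative gate cells, and Klrb1b, a receptor gene of the NKR-P1 family, in 12.5% and 56.3% against 50% and 70.5%, both named after their values were seen. Of 18 C-type lectins none was called, with a median of -0.64, and Mgl2 was at 154 and 360 CPM against 733 and 1157 (log2 -1.84, SE 0.45, adjusted p = 0.0792). The 25 interferon response genes had no call and a median of -0.61. Il1b (log2 -0.54, adjusted p = 0.661), Itgax (-0.24, adjusted p = 0.82) and Csf1r (-0.71, adjusted p = 0.715) did not pass.

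These counts were small and moved with the fit. Without the block for the library 2 genes were higher, Tcf4 and Lag3, and 0 lower (edgeR; 442 at an unadjusted p under 0.05), and with cells thinned to 2000 UMIs before summing none was called (296 at an unadjusted p under 0.05). With the sums of replicate 1 left out for both classes, Tcf4 was called higher and Ccl17, Lst1 and Pltp lower, and without those of replicate 2, Zmynd8 higher and Ccl17 lower. The spread in these fits comes from the other classes alone, and each lone sum is assumed to vary like them. Without cells holding a plasmacytoid marker UMI, 26 and 44 members remained, 10 of the 14 and 20 of the 30 genes were still called, and Cyp7b1 (log2 3.44), Axl (-2.75), Csf2rb (-1.42) and Gda (-2.81) were among those that no longer passed.

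Since Tcf4 binds E-box motifs, the promoters of the genes called against Cd7-negative gate cells were read for CAGGTG and its reverse complement CACCTG, on both strands. RefSeq promoters on GRCm38.p6 run from 250 bases before to 50 after a gene's start, and 9 of the 14 higher and 24 of the 30 lower genes had an entry. The motif was in 3 of the 9 (Zmynd8, Tnfaip8l2 and Tsc22d1, with several entries for Zmynd8 and Tsc22d1) and in 3 of the 24 (Cd9, Cyba and Gda). Counted by entry, it was in 3 of 18 (16.7%) for higher and 3 of 30 (10%) for lower genes, and in 20.2% of the 32851 promoters searched. The 250 bases before the start are shown 5' to 3' for Zmynd8, Ifitm1 and Cd9, with the motif in capitals. Zmynd8 rose, and of its 5 entries only the entry shown holds a match. Ifitm1 rose and holds none, and Cd9 fell and holds a match. A match describes these letters only and was not tested for binding.
Zmynd8, chr2:165882279-165882528, minus strand: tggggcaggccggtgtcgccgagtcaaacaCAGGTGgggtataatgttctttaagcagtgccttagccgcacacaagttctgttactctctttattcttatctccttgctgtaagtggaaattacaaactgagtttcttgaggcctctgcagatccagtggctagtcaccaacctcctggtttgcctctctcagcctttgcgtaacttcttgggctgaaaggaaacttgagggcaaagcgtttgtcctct
Ifitm1, chr7:140967826-140968075, plus strand: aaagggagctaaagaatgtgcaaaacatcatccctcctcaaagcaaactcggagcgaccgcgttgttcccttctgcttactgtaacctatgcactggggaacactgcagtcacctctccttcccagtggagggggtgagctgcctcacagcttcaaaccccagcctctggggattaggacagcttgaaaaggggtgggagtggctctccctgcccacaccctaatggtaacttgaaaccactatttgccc
Cd9, chr6:125494761-125495010, minus strand: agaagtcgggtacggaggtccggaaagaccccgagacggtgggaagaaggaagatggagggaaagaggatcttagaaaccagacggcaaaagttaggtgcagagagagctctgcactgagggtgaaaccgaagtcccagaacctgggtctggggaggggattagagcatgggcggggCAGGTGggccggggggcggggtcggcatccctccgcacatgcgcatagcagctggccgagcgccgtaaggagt

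Members were next compared with the cells that could be taken for them, beginning with Fn1 monocyte-like cells (153 and 80 cells). The comparisons share the sums of members, so their calls are not independent of those above. Flt3, Ccr7, Gpr183, H2-Oa and Tcf4 were higher in members, and Retnla, Lyz1, Cxcl1, Il6 and Cebpb lower. In the same edgeR fit 552 of 4894 genes were higher in members, 11.3%, and 506 lower, 10.3%, together 21.6%, with a median over all genes of -0.02.

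Flt3 was at 145 and 103 CPM in members against 5.4 and 7.4 in Fn1 monocyte-like cells (log2 4.27, SE 0.48, adjusted p = 1.73e-05). Ccr7, the lymph node homing receptor, was at 551 and 1011 CPM against 37.2 and 42.7 (log2 4.36, SE 0.72, adjusted p = 4.46e-04). H2-Oa, a chain of the modulator of MHC class II peptide loading, was at 360 and 386 CPM against 10.9 and 5.9 (log2 5.34, SE 0.29, adjusted p = 1.40e-08). In each of these genes both libraries of members were above both libraries of the monocyte-like cells. Of 13 MHC class II genes 4 were higher and none lower (Ctsh, H2-Oa, H2-Ob and Ifi30, median 0.87), while H2-Ab1 (log2 0.81, adjusted p = 0.156) and Cd74 (0.83, adjusted p = 0.161) did not pass. Of 20 MHC class I genes 8 were higher and none lower, with a median of 0.51. Of 13 costimulation and checkpoint ligands 6 were higher (Cd40, Cd83, Cd86, Havcr2, Pvr and Tnfsf9) and Vsir was lower, with a median of 1.25.

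Clec10a (log2 2.45, SE 0.50, adjusted p = 0.0021, edgeR), the macrophage galactose lectin gene used for cDC2, and the dendritic cell factor Zbtb46 (log2 2.63, SE 0.79, adjusted p = 0.0251, edgeR) were also higher. Their lists were mixed. Of 18 C-type lectins 4 were higher and 7 lower, with a median of -0.83. Of 31 transcription factors of dendritic cells 7 were higher and 9 lower, with a median of -0.19, and Irf4, Zeb2, Batf3 and Id2 were among the lower. Lag3, with 48 UMIs against 2, was 73.2-fold higher per total UMIs (counting interval 19.2 to 622), and Cyp7b1, with 64 against 2, 97.6-fold (25.9 to 823). Retnla, a secreted product of alternatively activated myeloid cells, was at 84.1 and 11.8 CPM in members against 9359 and 9331 (log2 -7.96, SE 0.57, adjusted p = 1.60e-07). Ccr2, the receptor by which monocytes leave the marrow, was at 74.8 and 79.6 CPM against 231 and 224 (log2 -1.55, SE 0.23, adjusted p = 1.42e-04). Lyz1 (log2 -6.52), Cxcl1 (-5.48), Il6 (-4.56), the myeloid factor Cebpb (-3.82) and the mannose receptor gene Mrc1 (-3.28) were lower as well, and 13 of 27 lysosome and scavenging genes fell while 3 rose. The fibroblast markers Col1a1, Col1a2, Col3a1 and Dcn summed to 4113 and 528 CPM in Fn1 monocyte-like cells and to 13.9 and 19.7 in members, and their part in this comparison was not tested. With 1 library left out, 201 to 216 genes were higher and 229 to 242 lower.

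Against Xcr1 and Clec9a cDC1-like cells (42 and 39 cells), members had less of the cDC1 factor Irf8 and more of several C-type lectins. The edgeR fit had 351 genes higher in members, 7.17%, and 262 lower, 5.35%, together 12.5%, with a median over all genes of 0.03. Irf8 was at 98.1 and 20.6 CPM in members against 906 and 1032 (log2 -4.23, SE 0.36, adjusted p = 1.36e-06). Cadm1, an adhesion gene of cDC1, had 3 UMIs in members and 191 in cDC1-like cells, 46.6-fold lower (counting interval 15.7 to 228). Clec10a was at 173 and 395 CPM against 8.7 and 20.2 (log2 4.31, SE 0.72, adjusted p = 6.78e-04). Sirpa, the cDC2 surface receptor, had 46 UMIs against 1, 62.8-fold higher (10.7 to 2535), and Zeb2, a factor of cDC2 and monocytes, had a log2 difference of 4.17 (SE 0.59, adjusted p = 1.77e-04).

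Of 18 C-type lectins 8 were higher in members and Clec12a was lower, with a median of 2.01, and of 31 genes of the Ccr2-type list 14 were higher and Clec12a was lower, with a median of 1.88. MHC class I presentation went the other way, with 6 of 20 genes lower (Psmb8, Psmb9, Psme1, Psme2, Tap1 and Tap2, median -0.35) and none higher. Psmb9, an immunoproteasome subunit, was at 224 and 156 CPM in members against 655 and 663 (log2 -1.82, SE 0.20, adjusted p = 9.58e-06). Of 20 S100, annexin and galectin genes 3 were higher (Lgals1, S100a4 and S100a6) and 2 lower, with a median of -0.02. S100a4, a calcium-binding protein gene, was at 2084 and 3141 CPM against 213 and 10.1 (log2 4.58, SE 0.54, adjusted p = 2.93e-05). Il1b was at 2280 and 4895 CPM against 408 and 2089 (log2 1.73, SE 0.41, adjusted p = 0.0101). Flt3 (log2 0.32, adjusted p = 0.638), H2-Ab1 (0.09) and Ccr2 (0.23, adjusted p = 0.69) did not pass. With replicate 1 left out 230 genes were higher and 141 lower, and with replicate 2 left out 74 and 65.

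**Figure D5:**
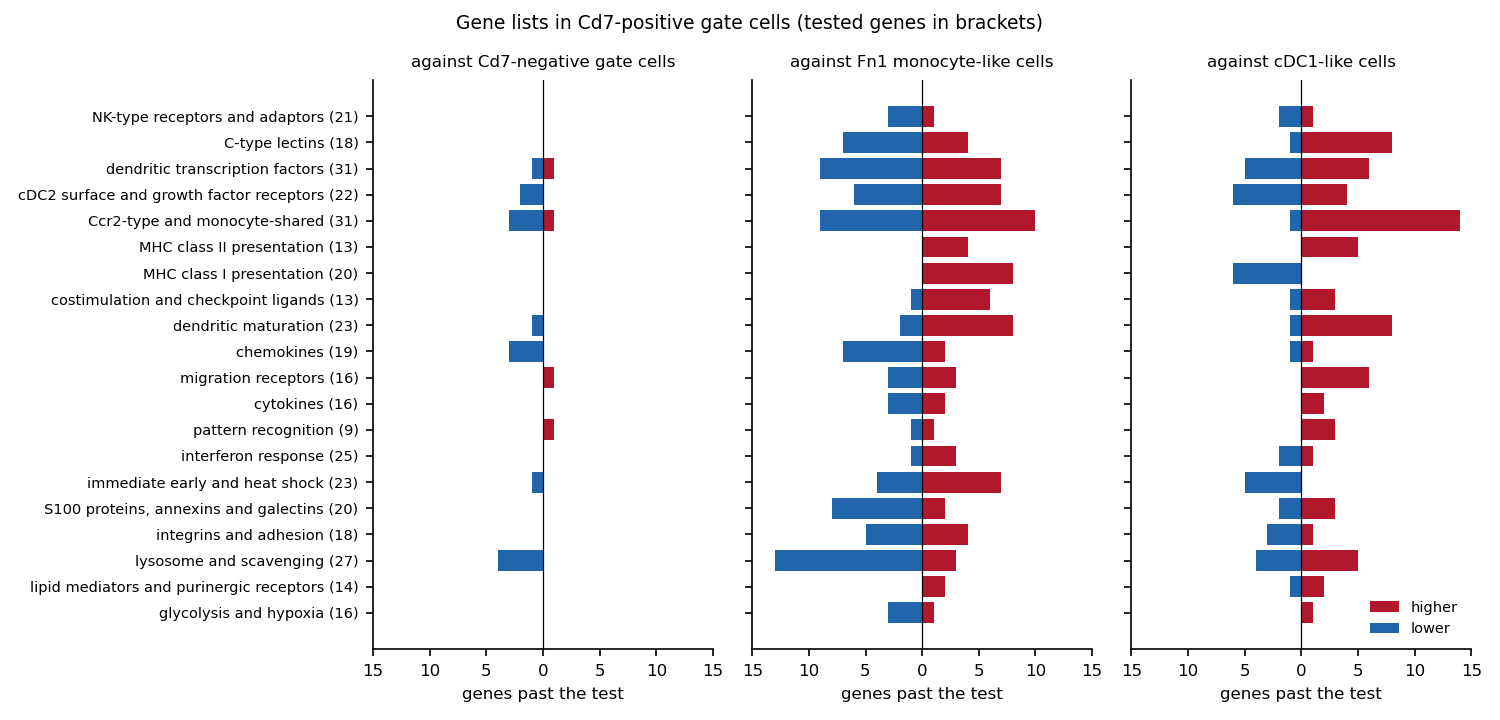
Counts of genes of each list called higher and lower in members, as bars to the right and left of 0, for the comparisons with Cd7-negative gate cells, Fn1 monocyte-like cells and cDC1-like cells. The comparison with Cd7-negative gate cells has at most 4 genes called in any list, in the lysosomal list, where all 4 fell, and in the Ccr2-type list, where 3 fell and 1 rose.

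Cd7 UMIs were not limited to members. Of 200 cells with one, 120 lay outside the gate. Of these, 56 had Cd3g or Nkg7, 15 were past the C1q limit and 9 had under 2 UMIs of Cd209a, Klrd1 and Mcemp1 together. A further 14 and 11 cells carried Cd7 and at least 2 UMIs of Cd209a, Klrd1 and Mcemp1 together but no H2-DMb2 UMI. Their H2-Ab1 level was still 10902 and 11421 CPM and their Klrd1 level 635 and 636 CPM, without TMM. None had a UMI of Klrb1c, Ncr1, Gzma or Cd3e, but these cells had already been chosen for having no Cd3g or Nkg7 UMI. Tcf4 was at 231 and 484 CPM, Cyp7b1 at 57.7 and 180, Plac8 at 2394 and 3097 and Siglech at 28.8 and 194 in those cells, and Ly6d, a marker of B cell and plasmacytoid progenitors, at 130 and 705. Another 3 and 10 cells with H2-DMb2 were left out by the limit on cycling genes, with Klrd1 at 243 and 340 CPM, Cyp7b1 at 30.4 and 90.6 CPM and H2-Ab1 at 13389 and 18754 CPM.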

How the data were processed

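Both libraries of CD11c-selected tumour cells were made with the 10x Genomics 3' chemistry version 2. The deposited files hold unnormalised UMI counts, 27998 genes by 737280 barcodes per library with no cells removed, processed with Cell Ranger 2.2.0 on mm10, per the submitters' processing notes. The annotation release is not given in the sources used here. Only genes, barcodes and counts were used, and 121 rows whose symbol is shared were kept apart by identifier.

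Cells had 2000 or more UMIs and at most 10% mitochondrial UMIs, which removed 87 and 84 of 2045 and 1299 barcodes. No doublets were removed in the main analysis. Scrublet (scanpy 1.11.5) ranked the 30 and 11 cells with the highest scores, 0.8% per 1000 cells, for an alternative, and 2 barcodes were cells in both libraries. Classes were gated on named genes, not clustered. Under the C1q limit, cDC1-like cells had 2 or more UMIs of Xcr1 and Clec9a, mature DC-like cells 2 or more of Fscn1, Fn1 monocyte-like cells 2 or more each of Fn1 and Tyrobp, and cytotoxic lymphocyte-like cells 3 or more of Cd3g and Nkg7. C1q macrophage-like cells had at least 0.5% of UMIs from the C1q genes. UMI counts were summed for each of the 7 classes, all with at least 20 cells per library. The sums went into a quasi-likelihood model of edgeR 4.0.16 (R 4.3.3) after filterByExpr and TMM. Library was a block in it, since all classes of a library come from 1 capture. Benjamini-Hochberg adjustment ran over 4894 of the 4921 genes past the filter, leaving out 27 gate or mitochondrial genes. From 14 sums the model kept 6 residual degrees of freedom, and its common biological coefficient of variation was 0.127. DESeq2 1.42.0 was an alternative. The deviations of members and Cd7-negative gate cells from their class means correlated at 0.189 over 4921 genes between cells of the same library, and the median over 21 class pairs was 0.127 (range 0.0252 to 0.379).

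On simulated counts of the comparison between members and Cd7-negative gate cells, the fit recovered 57 of 100 genes changed 2-fold and 94 of 100 changed 4-fold, with 5 false calls, over 4921 genes. The changed genes were drawn only from those above a minimum expected count. Every gene was given the common coefficient of variation, and the libraries were given no difference. The simulation therefore gives no measure for genes with few counts in Cd7-negative gate cells, such as Pi16. Members and gene lists were chosen with earlier results of these data known. The 20 lists held 491 written genes, of which 488 matched. Genes named were up to 2 per list with the largest called change, the 8 largest rises and falls at 50 CPM or more, and 16 fixed dendritic and monocyte genes. Genes of the gate are given without a test. Positions are from GENCODE M21 on GRCm38, in which 131 of 132 identifiers were found. Python 3.11.15, numpy 2.4.6, scipy 1.17.1, pandas 2.3.3 and matplotlib 3.10.9 were used.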

Additional observations from a re-analysis of the deposited data

How the results depend on the processing

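For members against Cd7-negative gate cells (14 higher, 30 lower), a filter of 1 count gave 32 and 121, the 4 sums alone 19 and 63, and cells of 5000 or more UMIs 11 and 13. Cd7 called after thinning to 2000 UMIs gave 0 and 0 (432 at an unadjusted p under 0.05), as did thinning before summing (296). DESeq2 gave 14 and 29, 9 and 25 of them shared, removal of the highest Scrublet scores 14 and 29, and members with 2 or more Cd7 UMIs 13 and 33. Leaving out 1 library left 1 gene higher, and 1 to 3 lower. The alternative without plasmacytoid marker UMIs, chosen after seeing the data, gave 11 and 21. Tcf4 had a log2 difference of 1.40 to 2.38 over all settings and passed in 10 of 13, but not in the 2 thinned settings (adjusted p = 0.106 and 0.10) or without replicate 2 (0.107).

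Without the replicate block, 2 genes were higher and 0 lower. Replicate numbers follow accession order, so the block stands for the library only. Against Fn1 monocyte-like cells the fit without the block gave 415 and 421, and against cDC1-like cells 282 and 210. Leaving out 1 library gave 201 to 216 higher and 229 to 242 lower against Fn1 monocyte-like cells, and 74 to 230 and 65 to 141 against cDC1-like cells. Other settings stayed within 1.5 times of these counts. The share of members in the gate was 17.8% when Cd7 was called after thinning, and 26.7% to 38.1% with 1 library left out. Of 1440 values of single named genes under the alternatives, 207 lost their call, 23 gained one and 0 reversed. Among the 44 called genes Igfbp5, outside the naming rule, turned to -0.51 with 2 or more Cd7 UMIs and to -2.16 with Cd7 called after thinning, and in the thinned sums and the 4 sums alone it was not tested. The causes were not tested, except that thinning before summing and leaving out a library reduce the UMI counts by construction. Calling Cd7 after thinning kept all UMIs. It moved members that had lost their Cd7 UMIs to the Cd7-negative class, which left 16 and 28 members. The depth of 80 members in 2 libraries limits what low genes can show.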
